A study of Drosophila melanogaster with 2 samples.

Results

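The genes described are 10 components of the circadian clock of Drosophila melanogaster: cry, per, tim, vri, Pdp1, sgg, Clk, cyc, dbt and cwo. They are 10 of 13968 annotated protein-coding genes, and peaks of a chromatin immunoprecipitation were sought over each gene and 2 kb upstream of its 5′ end. Chromatin came from whole adult males of 1 transgenic strain that expresses CG5204 (kmg) with a GFP tag at its C terminus, and anti-GFP antibody precipitated it in 2 biological replicates of this single group. Age is recorded as unknown, and the sources used here give neither the time of day at collection nor the number of flies. The replicates are told apart by number alone. The data are lists of regions on build dm6: 30000 regions for each replicate and for the pooled replicates, and 2868 peaks that passed the irreproducible discovery rate (IDR). The pooled list is labelled as peaks and background for IDR, so a listed region that did not pass need not be a peak. Peak signal is the score of the authors' peak caller on a scale that is not stated, and it serves below to rank and describe peaks. Library depth is unknown, since the sources used here give no read totals. Control libraries were not analysed here, so a peak is a site called in the GFP precipitate.

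The clock of the fly is a pair of linked feedback loops. CLK and CYC bind E-boxes, short DNA words with the core CACGTG, and activate per, tim, vri, Pdp1 and cwo. PER and TIM then block CLK and CYC, while VRI represses and PDP1 activates Clk. The loops run in brain neurons and in many peripheral tissues. Kmg, the tagged protein, carries zinc fingers and was described in spermatocytes, in which it and the remodeller Mi-2 hold genes of other cell types silent. Chromatin from whole males mixes all tissues, so a peak does not show the cell type it came from.

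Of the 10 clock genes, 8 held 1 or more IDR summits, 18 summits in all, and 2, Clk and cyc, held none. The genes were chosen by these same lists, in which 6 of them had been seen to hold peaks over 200 bp from the transcription start site (TSS), so this count is a description and has no test. Among all protein-coding genes, 2598 held a summit in the same interval, which is 18.6%. The gene dbt is named dco in the annotation and was matched through its synonym. It adds a seventh gene with a summit within 500 bp of one of its TSSs, after cry, per, tim, vri, Pdp1 and sgg, and cwo has its only summit farther inside the gene. Pdp1 held 6 summits and vri 5, dbt held 2, and 5 genes held 1 each.

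**Figure D1:**
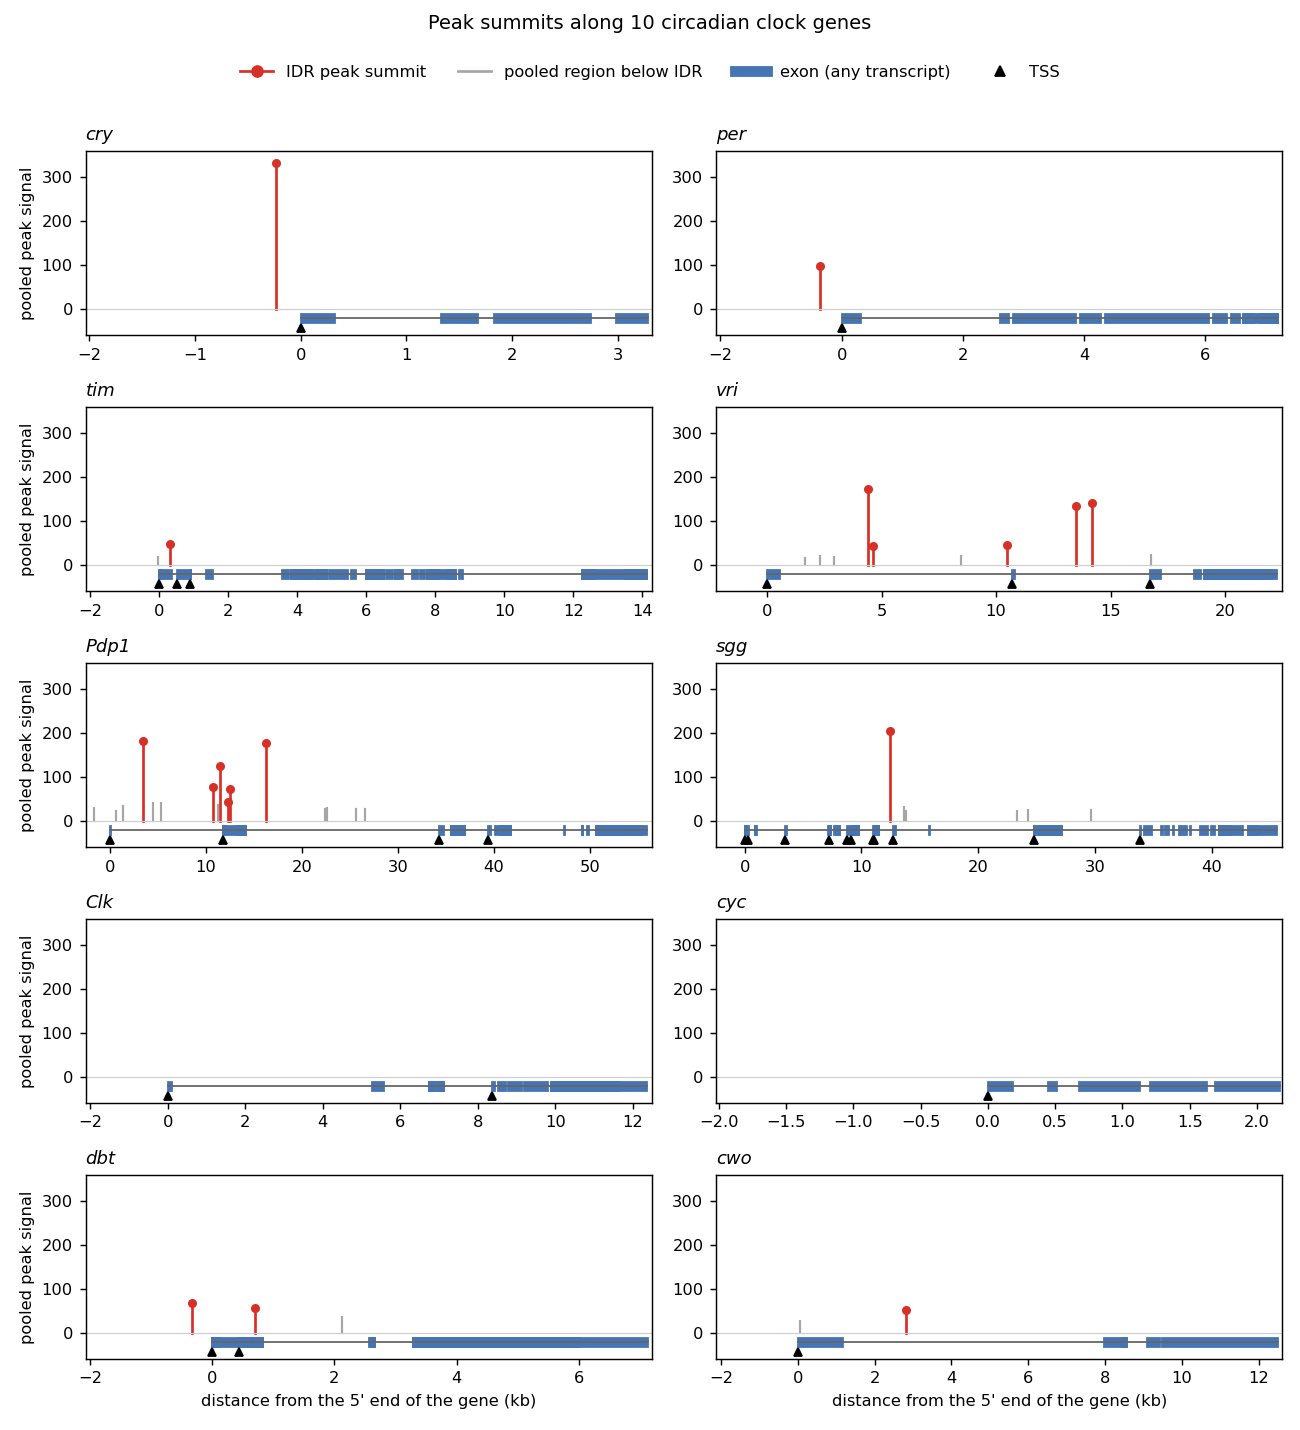
Pooled peak signal (vertical axis, caller's scale) against distance from the 5′ end of each clock gene in kb, read in the direction of transcription, with exons of any transcript as boxes and TSSs as triangles. Red stems are the 18 IDR summits and grey stems the 23 pooled regions that did not pass IDR; cry has the highest stem at 332, and Clk and cyc have none.

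The strongest clock summit lay upstream of cry (FBgn0025680, chr3R:19212154-19215442, plus strand), which encodes the blue light receptor that leads TIM to degradation. Its pooled signal was 332, and it ranked 124 among the 2868 IDR peaks. Replicate 1 gave 174 and replicate 2 gave 159. The summit was 235 bp upstream of the only annotated TSS of cry, and a non-coding gene, lncRNA:CR46393, starts at the same base in the same direction, so the peak cannot be assigned to 1 of them. The region was narrower than most, at 303 bp against the 430 bp shared by 2590 of the 2868 IDR peaks. No other region of the replicate or pooled lists fell over cry.

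The sole IDR summit of per (FBgn0003068, chrX:2685580-2692780, plus strand), which encodes a repressor of CLK and CYC, was also upstream. It lay 358 bp before the single TSS, with a pooled signal of 96.8 and a rank of 1013. The replicates were close, at 48.8 in replicate 1 and 47.7 in replicate 2. The nearest E-box was centred 169.5 bp farther upstream, 527.5 bp before the TSS. An E-box upstream of per is known as part of its circadian regulatory sequence.

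The sequences around these summits are shown because both genes have their summit in the promoter and outside any exon. They are read in the direction of the gene from the RefSeq Release 6 genome, plus strand, at chr3R:19211819-19212019 for cry and chrX:2685032-2685302 for per, where the window was extended upstream to reach the E-box. Capitals mark the words CACGTG (the E-box), CACGTT (a close variant) and GAGAG (the GAGA element) on either strand. Also marked are CGATA (a word of the factor BEAF-32) and TATAAA (the word of the TATA box). All 18 summits were over 200 bp from every TSS, so a marked TATAAA is a match of sequence and does not mark a start site.
cry: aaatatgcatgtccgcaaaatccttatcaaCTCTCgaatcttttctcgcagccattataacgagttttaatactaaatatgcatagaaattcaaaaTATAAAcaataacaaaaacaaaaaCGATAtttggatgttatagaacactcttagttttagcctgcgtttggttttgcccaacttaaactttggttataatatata
per: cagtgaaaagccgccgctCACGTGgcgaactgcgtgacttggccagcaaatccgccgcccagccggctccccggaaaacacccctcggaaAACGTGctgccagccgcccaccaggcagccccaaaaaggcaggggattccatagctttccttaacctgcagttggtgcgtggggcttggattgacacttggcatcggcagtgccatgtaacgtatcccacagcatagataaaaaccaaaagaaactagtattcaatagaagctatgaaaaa

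In tim (FBgn0014396, chr2L:3493986-3508119, minus strand), which encodes the partner of PER, the only IDR summit was weak and fell among 3 alternative starts. It lay 305 bp downstream of the first TSS (tim-RP, tim-RR and tim-RM), 210 bp upstream of that of tim-RO and 596 bp upstream of the start shared by the other 6 transcripts. Its pooled signal was 46.7 (rank 2520), with a false discovery rate of 0.165 in the pooled list. Replicate 2 gave 25.9 at this position, while the nearest region of replicate 1, with 29.9, was centred 109 bp away. Replicate 1 had another region of 30.8 at 1106 bp from the 5′ end, and replicate 2 had one of 28.9 at 30 bp upstream of the 5′ end. The strongest tim region thus differed between libraries, but by small margins over the regions of 29.9 and 25.9 by the IDR summit. Among the 2868 strongest regions of either replicate alone tim had 2.

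The kinase genes sgg and dbt both had summits near a start. The kinase of sgg (FBgn0003371, chrX:2633952-2679553, plus strand), known as shaggy or GSK3, phosphorylates TIM, and its summit had a pooled signal of 206 at rank 326. Both replicates gave 103. Of the 11 TSSs of sgg, this summit was nearest to that of sgg-RQ, 240 bp upstream of it, and it lay 12445 bp inside the gene. Of the 19 transcripts, 14 span it, and all of these have an intron there. For the others, sgg-RQ among them, the site is upstream of the start. The start of sgg-RP and sgg-RD was 12369 bp away and that of sgg-RT and sgg-RM 21413 bp. The next start of sgg, that of sgg-RK, was 1404 bp away, and the nearest TSS of another gene, Pi4KIIIalpha, was 21593 bp away. Replicate 2 alone listed a region of 35.3 near the 5′ end of the gene, 1238 bp inside it, so that sgg had 2 among the 2868 strongest regions of that replicate and 1 among those of replicate 1.

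The kinase encoded by dbt (FBgn0002413, chr3R:31054085-31061210, minus strand), doubletime, phosphorylates PER. Its first summit was 327 bp upstream of the TSS of 4 of its 5 transcripts, with a pooled signal of 66.6 (rank 1626). Replicate 1 gave 25.3 and replicate 2 gave 33.0. The second lay 705 bp inside the gene, 268 bp beyond the start of dco-RE, in an intron of 3 transcripts and an exon of 2, with a pooled signal of 55.1 and a false discovery rate of 0.0831. Here replicate 1 gave 11.4 within 100 bp and replicate 2 gave none, but regions of 26.4 and 28.8 were centred 116 bp and 101 bp away. The nearest start of another gene, Sox100B, was 3716 bp from the first summit.

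The upstream sequences of sgg-RQ and dbt are shown as the promoter sites of the kinases, from chrX:2646297-2646497 (plus strand) and chr3R:31061437-31061637 (minus strand). The dbt window held none of the words searched.
sgg: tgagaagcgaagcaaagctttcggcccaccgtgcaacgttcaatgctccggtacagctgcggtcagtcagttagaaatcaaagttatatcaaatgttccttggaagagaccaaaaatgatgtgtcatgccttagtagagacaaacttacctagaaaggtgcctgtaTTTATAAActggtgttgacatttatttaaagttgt
dbt: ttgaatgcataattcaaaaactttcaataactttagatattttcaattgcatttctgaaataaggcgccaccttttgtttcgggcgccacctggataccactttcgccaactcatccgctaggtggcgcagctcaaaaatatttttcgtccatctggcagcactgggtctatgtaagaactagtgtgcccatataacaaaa

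The genes of the second loop, vri and Pdp1, carried 11 of the 18 summits, each in a first intron of at least 1 transcript. VRI is a basic zipper repressor of Clk. The 5 summits of vri (FBgn0016076, chr2L:5288944-5311223, plus strand) lay 4428, 4633, 10499, 13508 and 14168 bp from the 5′ end, all in a first intron, which measures 18055 bp in the longest transcript. Their pooled signals, in that order, were 172, 42.5, 45.6, 133 and 140. Thus 3 of them stood well above the IDR limit and 2 stood close to it. The summits at 4428, 4633 and 10499 bp are spanned by 1 of the 5 vri transcripts, and those at 13508 and 14168 bp by 2. For the other transcripts these sites lie upstream of the start.

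The strongest vri summit gave 80.0 in replicate 1 and 87.3 in replicate 2. The summit at 13508 bp gave 71.8 in replicate 1 and 70.8 in replicate 2, and that at 14168 bp gave 56.5 in replicate 1 and 84.4 in replicate 2. The weak summit at 10499 bp, which is the one 204 bp upstream of the TSS of vri-RC, gave 15.0 in replicate 1 and 25.9 in replicate 2. Hence the vri summit that lies near a start was weak in both libraries, and the strong ones were 2538 to 4428 bp from the nearest TSS of the gene. The summit at 4633 bp, 205 bp from the first, has a region that overlaps it and is matched in replicate 2 only, with 24.2.

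PDP1, a basic zipper activator of Clk, competes with VRI for the same sites. The 6 summits of Pdp1 (FBgn0016694, chr3L:7811458-7867369, minus strand) lay 3440, 10709, 11426, 12283, 12493 and 16240 bp from the 5′ end of a gene of 55912 bp. Their pooled signals were 183, 76.2, 126, 43.7, 71.3 and 177 in that order. The middle 4 stood on both sides of the TSS shared by 7 of the 13 transcripts, at 1112 and 395 bp upstream and 462 and 672 bp downstream of it. The strongest was 3440 bp inside the gene and the next 4419 bp beyond the 7-transcript start. The start shared by Pdp1-RD and Pdp1-RJ was 18056 bp or more from every one of them, and that of Pdp1-RC and Pdp1-RL 23111 bp or more.

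The pair of strongest Pdp1 summits was even between libraries, with 97.1 in replicate 1 and 90.4 in replicate 2 at 3440 bp, and 90.7 and 84.8 at 16240 bp. The 4 around the shared start were less even. The summit 395 bp upstream had 71.7 in replicate 1 and 51.9 in replicate 2, and that 1112 bp upstream had 24.8 in replicate 1 and 52.9 in replicate 2. The summit 672 bp downstream had 43.6 in replicate 1 and 25.5 in replicate 2, and its neighbour 210 bp nearer the start, whose region overlaps it, had 17.2 and 22.7. The strongest of the 4 was thus the one 395 bp upstream in replicate 1. In replicate 2 it was nearly level with the one 1112 bp upstream, at 51.9 against 52.9.

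CWO, a basic helix-loop-helix-Orange protein, binds E-boxes and dampens CLK and CYC. The single summit of cwo (FBgn0259938, chr3R:10388258-10400752, plus strand) was 2832 bp inside the gene, in the first intron of all 3 transcripts, which share 1 TSS. Its pooled signal was 51.8 (rank 2193, false discovery rate 0.114), with 27.7 in replicate 1 and 22.3 in replicate 2. In replicate 2 this region was not among the 2868 strongest (rank 3374), so cwo had none in that library alone. At the start itself only weak regions were listed, with 20.5 in replicate 2 at 20 bp and 25.9 in the pooled list at 52 bp.

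Windows around 5 of the intronic summits are shown as examples of the sites inside these 3 genes. They come from chr2L:5293272-5293472 and chr2L:5303012-5303212 for the first and last vri summit (plus strand), from chr3L:7863829-7864029 and chr3L:7856560-7856760 for the first and second Pdp1 summit (minus strand), and from chr3R:10390990-10391190 for cwo (plus strand). The second Pdp1 window is the one of the 18 with an E-box within 100 bp, and the first vri and first Pdp1 windows held none of the words.
vri first: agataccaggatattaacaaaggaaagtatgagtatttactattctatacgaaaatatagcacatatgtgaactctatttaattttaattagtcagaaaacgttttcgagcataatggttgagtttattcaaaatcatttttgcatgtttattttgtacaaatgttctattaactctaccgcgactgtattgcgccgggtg
vri last: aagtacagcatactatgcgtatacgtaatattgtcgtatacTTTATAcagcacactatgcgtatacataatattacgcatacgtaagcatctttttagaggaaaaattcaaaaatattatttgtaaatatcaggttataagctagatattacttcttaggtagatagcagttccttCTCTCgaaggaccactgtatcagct
Pdp1 first: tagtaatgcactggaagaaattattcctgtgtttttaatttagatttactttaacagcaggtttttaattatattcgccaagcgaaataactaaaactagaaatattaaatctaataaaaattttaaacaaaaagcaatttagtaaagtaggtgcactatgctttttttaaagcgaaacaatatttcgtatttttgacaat
Pdp1 second: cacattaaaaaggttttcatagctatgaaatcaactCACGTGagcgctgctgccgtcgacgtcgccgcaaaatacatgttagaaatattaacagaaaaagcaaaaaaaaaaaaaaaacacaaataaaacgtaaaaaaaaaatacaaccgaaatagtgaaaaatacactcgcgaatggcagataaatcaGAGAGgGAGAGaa
cwo: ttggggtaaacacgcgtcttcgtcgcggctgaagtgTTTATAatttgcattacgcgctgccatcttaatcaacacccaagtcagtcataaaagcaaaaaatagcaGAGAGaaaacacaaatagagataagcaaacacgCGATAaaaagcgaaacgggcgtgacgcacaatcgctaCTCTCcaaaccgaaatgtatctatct

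Clk (FBgn0023076, chr3L:7763233-7775603, minus strand) and cyc (FBgn0023094, chr3L:19813770-19815938, minus strand), which encode the activators of the loop, were without IDR peaks. Over cyc, with 4.17 kb searched, no region of any of the 4 lists fell. Over Clk, with 14.4 kb searched, the pooled list and replicate 2 had no region, and replicate 1 had 1 region of signal 10.3 at rank 20171 of 30000, with a false discovery rate of 0.640. These lists do not give values for places without a region, so the absence of a peak sets no limit on binding there.

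The libraries gave like signals at the strongest clock summits. The 5 with the highest pooled signal, of cry, sgg, vri and Pdp1, had ratios of replicate 1 to replicate 2 from 0.916 to 1.09, while the summit of vri at 14168 bp and that of Pdp1 at 11426 bp, with pooled signals of 140 and 126, had 0.670 and 1.38. For 15 of the 18 summits (83.3%) each replicate listed a region within 100 bp, against 2523 of all 2868 IDR peaks (88.0%). The remaining 3 were in tim, vri and dbt. A listed region can be weak. In replicate 1 the region at the vri summit at 10499 bp ranked 7223, with a false discovery rate of 0.594. That at the Pdp1 summit at 12283 bp ranked 5125, with 0.502. The ratio of replicate 1 to replicate 2 over these 15 had a median of 1.01, with quartiles of 0.764 and 1.08, against a median of 0.961 and quartiles of 0.746 and 1.21 over all IDR peaks. Replicate 1 was the higher in 8 and replicate 2 in 7. Only the Pdp1 summit 1112 bp upstream of the shared start differed more than 2-fold, at a ratio of 0.468, as did 289 of the 2523 IDR peaks. Summits of 1 gene share their source, and 2 libraries allow no test between samples, so no p-value was computed.

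**Figure D2:**
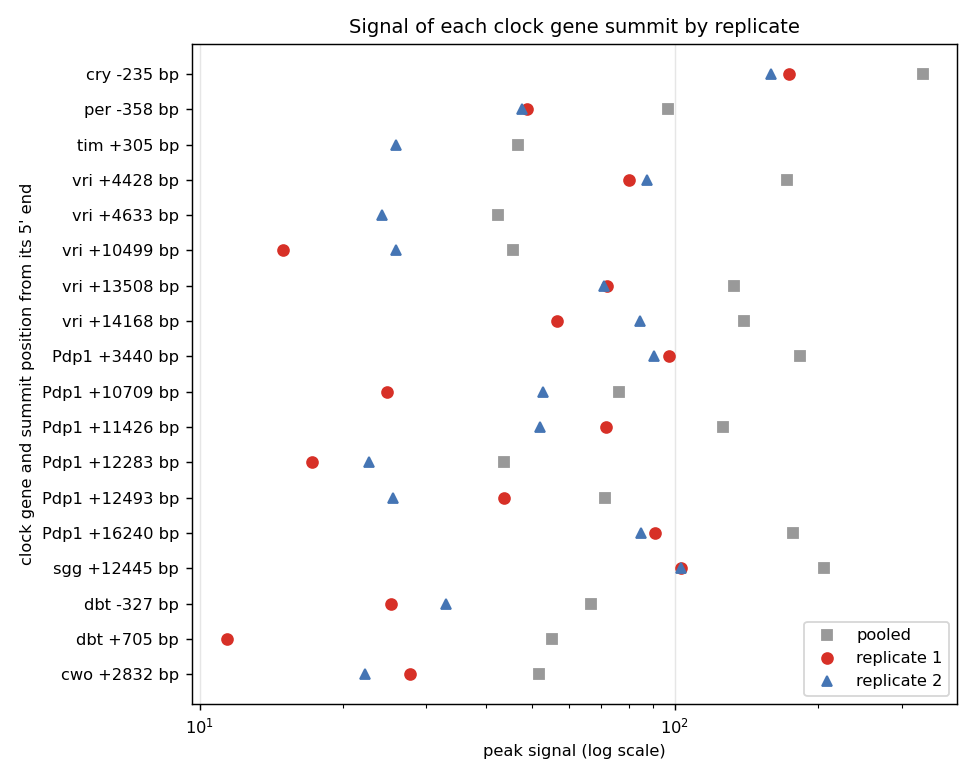
Peak signal (log scale) of each of the 18 clock summits in replicate 1 (circles), replicate 2 (triangles) and the pooled list (squares), with the position of the summit in bp from the 5′ end of its gene. Symbols of the replicates nearly coincide for per and sgg and stand apart for the weaker Pdp1 and vri summits; a missing symbol means no region within 100 bp.

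**Figure D3:**
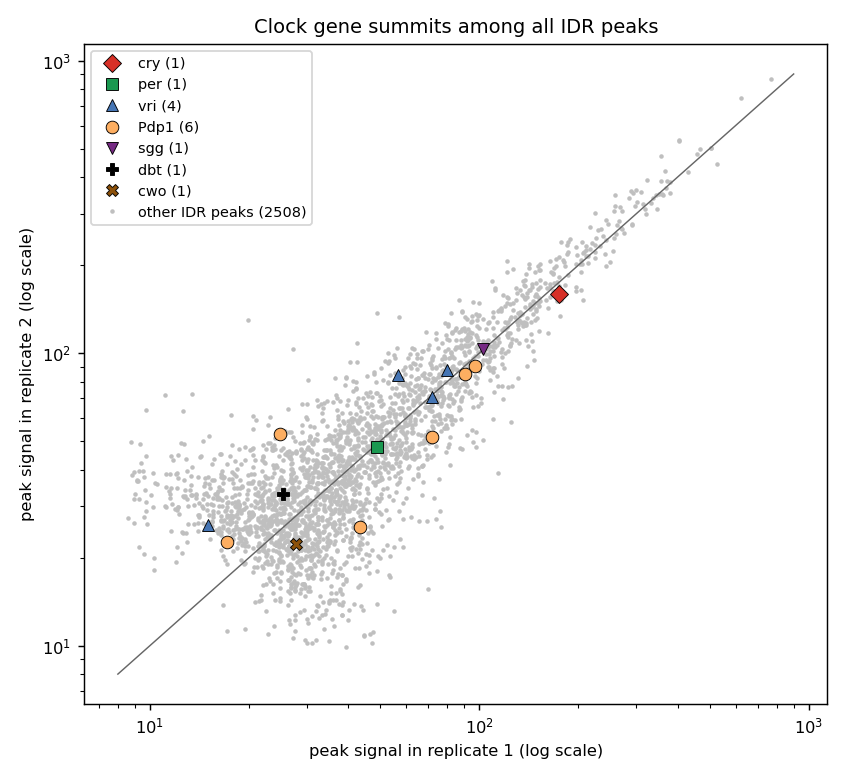
Peak signal in replicate 1 against replicate 2 (both log scales) for the 15 clock summits (coloured, by gene) and the other IDR peaks listed in both replicates (grey, of 2523 in all), with the line of equal signal. The clock summits lie inside the cloud of other peaks, with cry and sgg close to the line.

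In pooled signal the clock summits spread over most of the IDR list. They ranged from 42.5 to 332 with a median of 86.5, and all IDR peaks ranged from 42.5 to 1624 with a median of 73.0. Of the 18, 10 were among the strongest 1434 of the list, and 12 (66.7%) had a false discovery rate of at most 5%, against 62.4% of all IDR peaks. The weakest clock summit, in vri, ranked 2866 of 2868. The strongest clock region that did not pass was in Pdp1, with a pooled signal of 40.9 at rank 3020. With 5 kb searched upstream in place of 2 kb no summit was added, and the farthest upstream was that of per at 358 bp. The IDR peaks most like that of cry in pooled signal, a value over both replicates, were those nearest to Mppe and sau (both 333) just above and to Rev1 (331) and aru (329) just below. Their summits were 130, 72, 98 and 491 bp from the nearest TSS, and that near aru was intronic.

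The share of protein-coding genes with a summit grew with the length of the interval searched. It was 11.3% for intervals under 5 kb, 22.8% for 5 to 10 kb, 36.0% for 10 to 20 kb, 41.8% for 20 to 40 kb and 48.5% over 40 kb. Pdp1 and sgg belong to the longest class, and vri to the class of 20 to 40 kb. The class of 5 to 10 kb holds cry, per and dbt, all of which had a summit (3 of 3). The next holds tim and cwo, which had one, and Clk, which had none, and cyc is the only member of the shortest class. Thus sgg and Pdp1 belong to the class with the highest share of genes with a summit, and cyc to that with the lowest. Whether length has a part in which clock genes held summits was not tested.

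**Figure D4:**
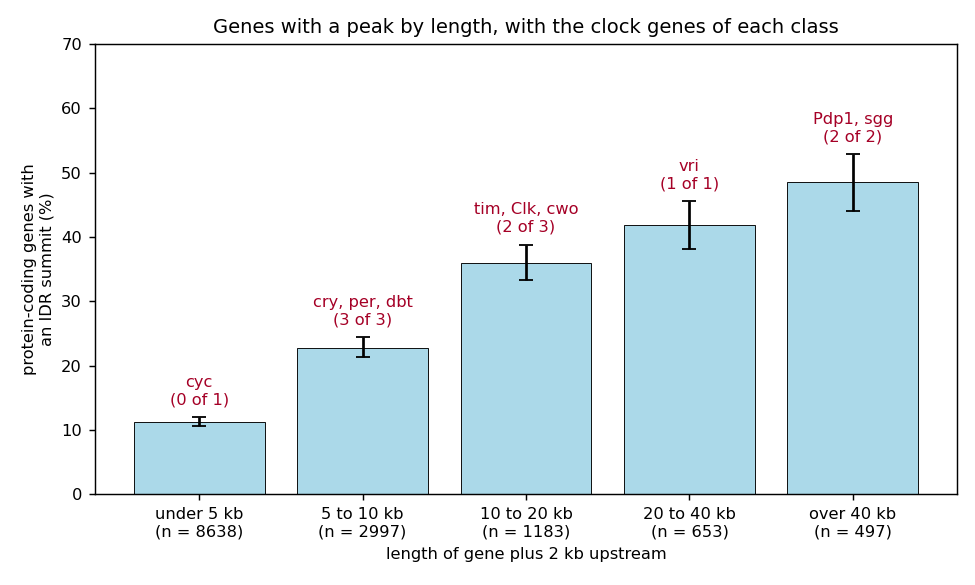
Percentage of protein-coding genes with an IDR summit over the gene or 2 kb upstream, by the length of that interval, with 95% Wilson intervals as error bars, which cover counting error only. The names above the bars are the clock genes of each class with how many of them had a summit, from 0 of 1 under 5 kb to 2 of 2 over 40 kb.

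Several summits in 1 gene were uncommon. At least 5 summits lay over 50 protein-coding genes (0.358%), vri and Pdp1 among them, and at least 6 over 25 (0.179%). In the class of 20 to 40 kb, vri was 1 of 11 of 653 genes with 5 or more. Its count rested on both libraries together: among the 2868 strongest regions of replicate 1 alone vri had 3, and among those of replicate 2 alone 4, and 3 of its 5 IDR summits had a false discovery rate of at most 5%. In the class over 40 kb, Pdp1 was 1 of 15 of 497 with 6 or more, and it had 6 in replicate 1 alone and 8 in replicate 2 alone, and 5 at that false discovery rate. Per 10 kb searched, dbt had 2.19 summits, vri 2.06, cry 1.89, per 1.09, Pdp1 1.04, cwo 0.690, tim 0.620, sgg 0.210 and Clk and cyc 0, against 0.209 over the chromosome arms as a whole. The genes were chosen for holding peaks and the arms include sequence outside genes, so these densities are not set on like terms. For a gene with 1 summit the density follows from the interval alone, as with the 5.29 kb of cry. Summits in vri were 205 to 5866 bp apart and in Pdp1 210 to 7269 bp apart, and the closest pair in each gene had overlapping regions.

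None of the 18 summits lay at a start site itself. The shortest distance to a TSS of the gene was 204 bp and the median over the 18 was 567 bp, and 18 of 18 were over 200 bp away, which the choice of the genes used in part. Among all IDR peaks 1835 (64.0%) were over 200 bp from the TSS of any gene. Counted by gene, 0 of the 10 had a summit within 200 bp of one of its TSSs, against 8.21% of protein-coding genes, a share too low for 0 of 10 to set them apart. Within 500 bp there were 7, against 12.5%, and within 1000 bp still 7, against 14.5%. The genes were chosen for holding peaks, so these counts are a description. By summit, 9 lay within 500 bp of a TSS of their gene. In all, 9 were upstream of their nearest TSS and 9 downstream.

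Introns held most clock summits. Of the 18, 15 (83.3%) were in an intron of at least 1 transcript, and each of these 15 was in a first intron of some transcript. Over all IDR peaks the shares were 51.7% for any intron and 38.5% for a first intron. In 11 (61.1%, against 47.4% of all IDR peaks) the summit was intronic in every transcript that spans it, while in tim, dbt and the 2 overlapping Pdp1 summits it was exonic in others. Some sites are spanned by few transcripts, as the first vri summit by 1 of 5 and the first Pdp1 summit by 2 of 13. Both lie upstream of the starts of the other transcripts. The 3 summits outside introns, in cry, per and dbt, lay upstream of the gene. The genes were chosen in part for peaks over 200 bp from the TSS, so these shares are a description. Of the 18 summits, 11 are in vri and Pdp1, with first introns of up to 18055 and 49017 bp. The GC content within 100 bp of the summit ranged from 24.4% to 53.7% with a median of 34.8%, the same as the median of all IDR peaks.

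E-boxes were most frequent in per and cwo among the 10 genes, and 1 of the 18 summits had one within 100 bp. The word CACGTG occurred 8 times in the 9.20 kb searched for per and 10 times in the 14.5 kb of cwo, which is 8.69 and 6.90 per 10 kb, against 1.22 over the arms. The lowest were Clk with 0.696 and tim with 1.24. Within 100 bp of the summit it was present at 1 of 18 clock summits (5.56%), against 2.34% of all IDR peaks. Within 250 bp it was present at 4 (22.2%), in Pdp1, per and vri, against 7.08%, and within 50 bp at 0, against 1.08%. The nearest E-boxes of cwo and tim were centred 273.5 and 394.5 bp from the summit, and that of sgg 2149.5 bp. The related word CACGTT was within 100 bp of 4 summits (22.2%), in per, tim, vri and Pdp1, against 5.40% of IDR peaks.

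Of the other words searched on both strands within 100 bp, TTATGTAA, the site known for VRI and PDP1, was at 0 of 18 clock summits and at 2.41% of IDR peaks. The GAGA word GAGAG was at 6 clock summits (33.3%), against 22.1% of IDR peaks, and the TATA word TATAAA at 8 (44.4%), against 36.9%. CGATA was at 2 (11.1%), in cry and cwo, against 28.5%. TATCGATA, which contains CGATA, was at 0, against 3.14%. With 18 summits in 8 genes, 1 summit more or less moves each clock share by 5.56 percentage points. A match to a word is a description of the sequence and does not show that a factor was bound.

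Beyond the 10 genes, 44 genes that act with the clock were examined, a list drawn up with earlier results of these data known. Of these, 16 (36.4%) had an IDR summit, against 18.6% of all protein-coding genes. Because of how the list was made, this count is a description and was not tested. Many are long, and by class of length 2 of 9, 1 of 8, 4 of 16, 6 of 8 and 3 of 3 had one, in the order of the classes above. The shares of all protein-coding genes in these classes were 11.3%, 22.8%, 36.0%, 41.8% and 48.5%. By role, kinases and phosphatases had 5 of 8, genes grouped under clock transcription 5 of 10 and protein turnover 1 of 7. Translation had 1 of 3, signalling and output 2 of 10 and light input 2 of 6. The share of all protein-coding genes was 18.6%, but the searched lengths differed between roles. They were 3.31 to 11.6 kb for protein turnover and up to 77.1 kb for kinases and phosphatases. These counts are small and were not set against genes of like length, so they do not rank the roles.

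The strongest of these was in Lk6, a kinase gene, with a pooled signal of 976 in an intron (469 in replicate 1 and 497 in replicate 2). Mef2, a muscle and neuron transcription factor gene that CLK and CYC control in clock neurons, held 5, but the strongest of them, with 933, was 173 bp from the TSS of Pdrg1, its neighbour. The phospholipase gene norpA of the phototransduction cascade held 3, up to 487, all in introns. Among genes grouped under clock transcription, kay, which encodes the basic zipper protein Fos, had 270, nej, which encodes the coactivator CBP, had 145, and E23, an ABC transporter gene of the ecdysone response, had 130. The nearest TSS to this kay summit was that of lncRNA:CR46110, at 1039 bp, and to this nej summit that of lncRNA:CR42657, at 470 bp. The genes wdb and tws, whose products are subunits of the phosphatase PP2A that acts on PER, had 103 and 100 with summits 90 and 47 bp from a TSS.

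The rhodopsin gene Rh5 held 3, up to 115, none of them in an intron. The neuropeptide genes sNPF and ITP had 76.7 and 56.6. The Rh5 summit of 115 was matched in replicate 1 only, with 68.5, and that of ITP in replicate 2 only, with 27.9. The strongest summit of each other listed gene was matched in both replicates. CSN5, which encodes a subunit of the COP9 signalosome, had 76.0 at a summit nearest to the TSS of CG42232. Atx2, which promotes translation of per, had 65.6, and the topoisomerase gene Top1 had 49.1. The weakest were nmo and CkIIalpha, both with 43.5, and the summit over CkIIalpha was 38 bp from the TSS of RpL10. In all, 22 of the 29 summits over this list had a TSS of the listed gene as the nearest one.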

How the data were processed

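Peak lists from GFP immunoprecipitation of CG5204-GFP adult males were used on build dm6: 1 list per replicate, 1 for the pooled replicates and 1 of optimal IDR peaks. Sonicated fragments had 200 to 800 bp per the labels. The signal of each region was deposited by the authors, and its −log10 q-value was deposited beside it. Per the deposited sample descriptions, the replicate and pooled lists were made from alignments that include control libraries. The IDR peaks were the 2868 strongest of the 30000 pooled regions. Which caller and aligner were run, with which versions and filters, is not stated in the sources used here, and neither are read totals, so the depth is unknown. The lists on dm3 were not used.

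Summits were set on Ensembl release 115 (Release 6, with transposable elements left out: 18277 genes on the chromosome arms, 13968 of them protein-coding). All regions and genes lay within the arm lengths of the Release 6 genome. The searched interval was the gene and 2000 bp upstream, and regions were matched between lists within 100 bp of the summit. Words were searched within 100 bp of the summit. Intervals of shares are 95% Wilson intervals and cover counting error only. The method was tested on simulated data (200 of 200 planted genes were recovered among 13968). The members and lists were chosen with earlier results of these data known, and no test was made. Named are all 10 members, genes of the wider list with a summit, genes at the nearest TSS, and the 2 IDR peaks above and below the strongest clock summit in signal. Alternatives were the 1434 strongest peaks, a false discovery rate of at most 5%, each replicate alone, other intervals, and other windows of matching and of words. Tools were Python 3.11.15, scipy 1.17.1, numpy 2.4.6, matplotlib 3.10.9 and pandas 2.3.3.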

Additional observations from a re-analysis of the deposited data

How the results depend on the processing

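The count of clock genes with a summit was 8, and it was 5 of 10 among the 1434 strongest IDR peaks (cry, per, sgg, vri and Pdp1), where 10 summits and 8 intronic summits were left, by construction fewer, and 11.7% of all genes had one. With peaks at a false discovery rate up to 5%, 6 genes were left, without tim and cwo, against 13.7% of all genes. In the 2868 strongest regions of 1 replicate at a time the count was 7 to 8 genes with 18 to 20 summits (cwo was lost without replicate 1), against 19.4% to 20.2% of all genes, and 17 to 18 of the wider list. With the gene body alone 6 genes were left, without cry and per, against 8.20% of all genes, and with 5 kb upstream 8, against 23.3%. Summits over 500 bp from every TSS of the gene numbered 9 and over 1000 bp 8, and those with an E-box numbered 0 within 50 bp and 4 within 250 bp, as wider windows hold more. Matching within 300 bp gave regions in both replicates for 18 summits, and among the strongest regions of each replicate for 12. At 300 bp the second vri summit is matched in replicate 1 by a region of 80.0 centred 211 bp away, which also matches the first vri summit. No paired analysis was possible because there is 1 group. By gene, vri had 3 summits in replicate 1 alone, 4 in replicate 2 alone and 3 at a false discovery rate up to 5%, and dbt had 1 at that rate. Depth is unknown, so the absence of a peak does not tell weak binding from none.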
